A study of Mus musculus with 4 samples.

Results

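The 39 genes described here are transcribed mainly in cells that copy their DNA or divide, and they were chosen by name from the 32285 genes of the count matrices. Of them, 21 belong to mitosis, 16 to DNA replication and its nucleotide supply, and the last pair is Stmn1, which destabilises microtubules, and Hmgb2, a chromatin protein that bends DNA. The study used single-cell RNA sequencing of live immune cells, sorted as CD45+ and MHC class I+, from B6 mice carrying BeCon, a tumour that the series title places in ovarian cancer. The mice received YKL-05-099, an inhibitor of the salt-inducible kinases, or the vehicle. Cells of each mouse and tissue carried their own hashtag antibody. Ascites came from 4 mice per arm, and spleen and blood, in a second library, from vehicle mice 1 to 3 and treated mice 2 to 4. Whether equal mouse numbers within an arm are the same animals in both libraries is not stated. All mice bore the tumour, so no group without it was analysed here, and dose, schedule and age are not given in the sources used here.

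A cell that enters the cycle first releases E2F transcription factors from the retinoblastoma protein, and E2F then switches on the genes that load and fire replication origins. The MCM proteins form the helicase that opens the DNA, Pcna clamps the polymerase to it, and ribonucleotide reductase (Rrm1, Rrm2) supplies the building blocks. Later, cyclin B and Cdk1 drive the cell into mitosis, where kinesins, Aurora and Polo kinases and centromere proteins separate the chromosomes. Among immune cells of the abdomen and blood, most lymphocytes rest unless antigen drives them to divide, and dendritic cells and monocytes arise mainly from dividing precursors.

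The promoters of members that led the results are printed to show how the replication and mitosis genes differ in sequence. Of the 39 members, 31 matched an entry of the RefSeq promoter table (GRCm38.p6). Each sequence holds the 150 bases before the RefSeq start, 5′ to 3′ on the gene's strand. Capitals mark matches on either strand to TTTNNCGC (a loose E2F site), TTTGAA (the cell cycle homology region), CCAAT (the site of NF-Y) and TGACG (part of the site of CREB).
Mcm6 (chr1:128359706-128359855, minus strand): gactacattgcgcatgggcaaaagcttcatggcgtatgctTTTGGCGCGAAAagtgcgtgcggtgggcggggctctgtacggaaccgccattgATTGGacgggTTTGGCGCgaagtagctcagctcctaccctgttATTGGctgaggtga
Mcm5 (chr8:75109359-75109508, plus strand): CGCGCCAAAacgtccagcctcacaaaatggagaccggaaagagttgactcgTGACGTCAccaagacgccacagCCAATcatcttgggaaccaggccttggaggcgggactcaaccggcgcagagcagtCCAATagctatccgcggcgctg
Top2a (chr11:99024190-99024339, minus strand): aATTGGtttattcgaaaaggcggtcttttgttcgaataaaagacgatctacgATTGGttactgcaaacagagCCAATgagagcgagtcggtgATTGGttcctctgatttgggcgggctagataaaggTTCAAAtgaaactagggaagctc
Mki67 (chr7:135716380-135716529, minus strand): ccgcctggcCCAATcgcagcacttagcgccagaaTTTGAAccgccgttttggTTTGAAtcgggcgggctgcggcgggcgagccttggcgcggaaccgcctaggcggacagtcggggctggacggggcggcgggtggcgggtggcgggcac

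In the 250 bases before the start, Mcm6 had 3 matches to TTTNNCGC and Mcm5 had 2, while Top2a and Mki67 had 2 matches each to TTTGAA and none to TTTNNCGC. TTTNNCGC stood in 38.5% of the 13 replication promoters in the table, in 5.88% of the 17 mitosis promoters and in 4.39% of all 27025 promoters of the same length. TTTGAA stood in 41.2% of mitosis promoters, 7.69% of replication promoters and 16.3% of all. CCAAT was found in 94.1%, 69.2% and 34.5% in the same order, and TGACG in 23.5%, 23.1% and 17.9%. The full CREB site TGACGTCA, which contains TGACG, stood in 1 of the 13 replication promoters (7.69%), that of Mcm5. It stood in 1 of the 17 mitosis promoters (5.88%) and in 1.62% of all. The mean GC content was 58.3% for the members and 53.0% for all genes, and a match describes letters, not binding.

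The ascites library summed to 134034611 UMIs (unique molecular identifiers, each a counted transcript) over 13688 barcodes, and that of spleen and blood to 92064806 UMIs over 14792 barcodes. After filters and assignment to a hashtag, 6419 and 6741 cells were used, with medians of 8310 and 5987 UMIs. Each mouse gave 665 to 1095 ascites cells, 584 to 806 spleen cells or 376 to 510 blood cells. The libraries shared 52 barcode sequences, Ptprc (CD45) was counted in 91.6% of ascites and 94.1% of spleen and blood cells, and the epithelial keratin Krt8 in 0.0935% and 0.104%. Cell classes are clusters made without cell cycle genes and named by marker transcripts, as cDC1-like, T cell-like and so on. The suffix is left out below.

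To compare classes at equal depth, each cell was thinned to 2000 UMIs and called cycling when it then held at least 2 UMIs of the 21 mitotic members. The class of cDC1, the dendritic cells that present antigen to CD8 T cells, had a cycling share of 6.88% over all ascites mice (38 of 552 cells, exact Clopper-Pearson 95% interval 4.92 to 9.33). T cells had 6.38% (4.97 to 8.05), cDC2 6.55%, B cells 5.48% (4.26 to 6.92), neutrophils 5.24% and classical monocytes 4.57%, all with overlapping intervals. Part of these shares came from Cenpa: counted without it, the mean over mice went from 4.48 to 1.08% in vehicle and from 9.81 to 1.72% in treated B cells and from 4.81 to 1.03% in treated classical monocytes, while vehicle cDC1 stayed at 4.26%. Migratory dendritic cells, which carry antigen to lymph nodes, had 3.07% (1.48 to 5.57). These intervals cover counting error only.

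The ascites macrophages that entered the comparison had 7.01%, but their clusters ran from 0 of 110 cells in cluster 14, which allows up to 3.3%, to 8.55% in cluster 2. Cluster 2 held mostly treated cells, and its mean over mice was 7.66% with Cenpa and 3.16% without. Cluster 10, of vehicle cells, had 6.33 and 5.98%, so the order of these means turned without Cenpa. Without it, cluster 2 had 1.35, 7.36, 1.38 and 2.56% in treated mice, and cluster 10 had 5.33 to 7.14% in vehicle mice. A macrophage cluster found almost wholly in vehicle mice, cluster 3, had 10.6% (8.24 to 13.5). Of the 2 clusters of T cells, cluster 8 had 10.8% (7.85 to 14.4) and cluster 1 had 3.82% (2.49 to 5.59).

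In the spleen the order was wider than in ascites. B cell cluster 7 had 0.495% and CD8 T cells 2.27%, while CD4 T cells had 6.44%, classical monocytes 12% (7.79 to 17.5), neutrophils 24.3% (17.4 to 32.2) and macrophages 41.5% (26.3 to 57.9, of 41 cells). Blood classes were low, with CD8 T cells at 0.852% and B cells at 2.73%, except that neutrophils had 15.2% of 46 cells (6.34 to 28.9). The shares of 0.495% and 0.852% are the lowest of that library above 0 and serve as its background level, and the blood CD8 T cells behind the latter had medians of 6513 to 7948 UMIs per mouse.

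**Figure D1:**
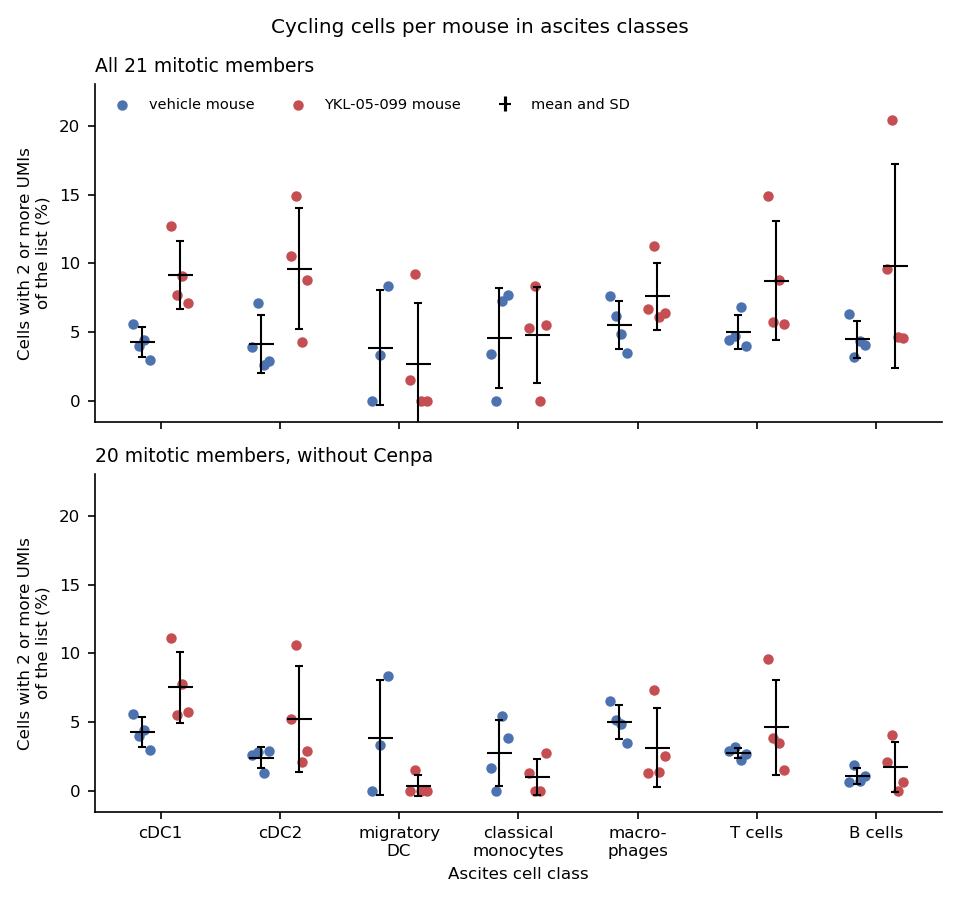
Cycling share in 7 ascites classes, as the percentage of cells with at least 2 UMIs of the 21 mitotic members after thinning to 2000 UMIs (first panel) and of the 20 members without Cenpa (second panel). Points are mice, with the mean and SD per arm. The treated cDC1 values (7.14 to 12.7%) lie above the vehicle values (2.99 to 5.62%), and without Cenpa the treated mean of B cells goes from 9.81 to 1.72%.

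In ascites cDC1, genes of DNA replication were higher in treated mice, with 8 of 13 tested replication members past the threshold, and both Stmn1 and Hmgb2. Mitosis members were less clear, with 0 of 11 past the threshold by edgeR, although Mki67, Birc5, Cenpa and Kif11 had an unadjusted p below 0.05 and Mki67 passed with DESeq2 (adjusted p = 0.0187). Counts were summed per mouse and tested across 4 vehicle and 4 treated mice by edgeR's quasi-likelihood test with Benjamini-Hochberg adjustment over all genes tested and a threshold of 0.05. Of 26 members with enough counts, 10 were higher and 0 lower, and 16 had an unadjusted p below 0.05. DESeq2 called 9 higher and 0 lower. Of all 7459 genes tested, 8.25% were higher and 9.33% lower. The median log2 difference was 0.90 over the tested members and 0.00 over all genes. The mean level of all 39 members was higher in treated mice, against 55.1% of the 15165 genes with a UMI, and 11 of the 39 had every treated mouse above every vehicle mouse, against 6.36% of those genes and 8.53% of genes with at least 10 UMIs. In such sums, more cells with a transcript and more transcripts per cell cannot be told apart.

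Levels are given as CPM, the usual scaling of a gene's count by all UMIs of that mouse and class, with mice in order of their number. Mcm6, a helicase subunit (chr1:128331590-128359664, minus strand, GRCm38), stood at 14.6, 20.4, 18.8 and 22.5 CPM in vehicle mice and at 52.9, 53.1, 38.2 and 40.2 CPM in treated mice. Every treated mouse was above every vehicle mouse, and the log2 difference was 1.26 ± 0.19 (SE, adjusted p = 4.41e-06). Mcm3, another subunit, had 17.5, 18.2, 15.6 and 18.1 CPM in vehicle and 44.7, 43.3, 33.3 and 39.4 CPM in treated mice. The vehicle mice were close to each other, the arms did not overlap, and it rose by 1.16 ± 0.19 on the log2 scale (adjusted p = 1.53e-05).

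Mcm4 was measured at 11.7, 11.8, 10.4 and 12.3 CPM in vehicle mice against 24.0, 34.2, 21.2 and 20.9 CPM in treated mice (log2 difference 1.08 ± 0.23, adjusted p = 0.000754). Mcm5 (chr8:75109569-75128439, plus strand), whose promoter is printed above, had 12.3, 24.7, 12.5 and 21.7 against 41.4, 39.0, 26.9 and 27.0 CPM (0.91 ± 0.22, adjusted p = 0.00276). Neither gene's arms overlapped, though vehicle mice 2 and 4 came close to treated mice 3 and 4 for Mcm5. Mcm2 went from 9.93, 15, 3.13 and 9.42 to 17.4, 27.4, 17.7 and 13.9 CPM and passed with overlapping arms (1.0 ± 0.29, adjusted p = 0.0122), but not without treated mouse 2 (0.109) or vehicle mouse 3 (0.0557). The last subunit, Mcm7, had a difference of 1.34 and did not pass (adjusted p = 0.0709).

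Gins2, part of the complex that activates the MCM helicase, had the largest difference among the replication members called, with 2.92, 4.29, 8.33 and 3.62 CPM in vehicle and 18.2, 12.8, 9.20 and 10.8 CPM in treated mice (1.45 ± 0.36, adjusted p = 0.00352). Its highest vehicle mouse was just under its lowest treated mouse, and Gins2 lies opposite Gse1 on the other strand. Pcna, the polymerase clamp, had 70.7, 118, 71.9 and 114 against 155, 174, 127 and 127 CPM (0.62 ± 0.15, adjusted p = 0.00636). Rrm1, the large subunit of ribonucleotide reductase, had 7.59, 30, 11.5 and 16.7 against 35.6, 30.5, 30.4 and 20.1 CPM, with overlap (0.89 ± 0.29, adjusted p = 0.0413), and it passed only with all mice or without treated mouse 4 or vehicle mouse 2 (up to 0.149 otherwise). The other genes of nucleotide supply did not pass: Rrm2 differed by 1.08 (adjusted p = 0.25), the thymidylate synthase Tyms by 0.84 (0.397) and the thymidine kinase Tk1 by 0.71 (0.183). Uhrf1, which carries DNA methylation across replication, differed by 1.41 (0.16).

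Stmn1 was counted at 54.9, 72.9, 38.5 and 64.5 CPM in vehicle and at 264, 154, 116 and 109 CPM in treated mice (log2 difference 1.43 ± 0.36, adjusted p = 0.0392). Hmgb2, the most abundant member, had 353, 341, 333 and 407 against 720, 476, 506 and 427 CPM (0.53 ± 0.14, adjusted p = 0.0256). Both were highest in treated mouse 1, and neither had overlapping arms. The calls were lost without any 1 vehicle mouse (edgeR adjusted p up to 0.114 for Stmn1 and 0.0956 for Hmgb2), and that of Stmn1 also without treated mouse 2 (0.0856). Members too low to test pointed the same way: Cdc6, which loads the MCM helicase onto origins, had 3 UMIs over the vehicle mice and 38 over the treated mice, and cyclin E genes Ccne1 and Ccne2 had 13 against 21 and 3 against 16.

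Mki67, the usual antigen of dividing cells, stood at 28.6, 30, 29.2 and 25.4 CPM in vehicle and at 119, 44.5, 67.2 and 41.0 CPM in treated mice. The arms did not overlap, but the treated mice were widely spread and the difference of 1.21 ± 0.40 missed the threshold (edgeR adjusted p = 0.0943). Top2a, the topoisomerase that untangles sister chromosomes, had 19.3, 30, 15.6 and 34.8 against 91.8, 31.7, 50.3 and 29.4 CPM, with overlap (0.96 ± 0.47, adjusted p = 0.253). Cdk1 had 26 UMIs over the vehicle mice and 62 over the treated, and Ccnb1 had 10 and 20, too few to test. Treated mouse 1 was the highest mouse for Mki67 and Top2a. The other tested mitosis members ran from 0.15 for Aurkb (adjusted p = 0.911) to 0.91 for Cenpa (0.125).

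**Figure D2:**
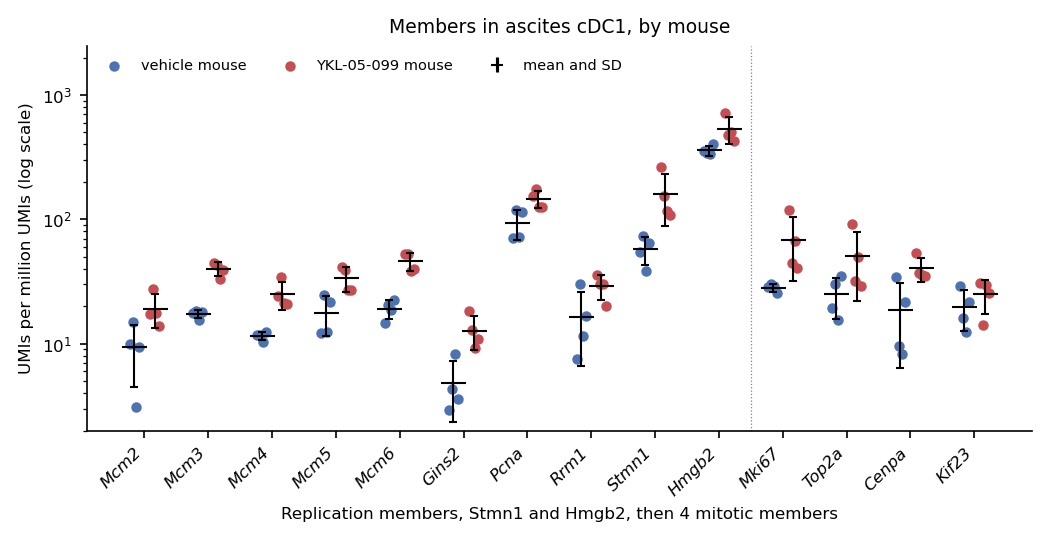
Levels of 14 members in ascites cDC1 as CPM on a log axis, with points for the 4 vehicle and 4 treated mice and bars for the mean and SD. The arms are apart for Mcm3, Mcm4, Mcm5, Mcm6, Gins2, Pcna, Stmn1, Hmgb2, Mki67 and Cenpa, and overlap for Mcm2, Rrm1, Top2a and Kif23.

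Summed over the 16 replication members, vehicle mice had 185, 336, 170 and 269 CPM and treated mice 559, 542, 403 and 355 CPM, without overlap (240 ± 77.2 against 465 ± 101, SD, n = 4). The 21 mitotic members summed to 223, 157, 135 and 220 CPM in vehicle mice and to 538, 218, 379 and 223 CPM in treated mice, with overlap (184 ± 44.4 against 339 ± 152). The cycling share of cDC1 was 5.62, 4.0, 4.44 and 2.99% in vehicle mice (5, 2, 2 and 2 cells) and 12.7, 7.69, 9.09 and 7.14% in treated mice (8, 7, 7 and 5 cells). The arms did not overlap, with 4.26 ± 1.09% against 9.16 ± 2.50%, a difference of 4.89 percentage points. Without thinning, 29.5 ± 3.20% and 43.0 ± 5.16% of the cells held at least 2 such UMIs. Without Cenpa the shares were 4.26 ± 1.09% and 7.53 ± 2.60% and overlapped, and with at least 4 UMIs required they were 2.14 ± 1.51% and 5.02 ± 4.12% and also overlapped.

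The rise of replication genes was also seen in cDC1 that held no mitotic UMI after thinning, an alternative added after the values were seen. There 7 of 10 tested members outside mitosis passed, against 7.72% of all genes higher. The log2 differences were 1.92 for Mcm7, 1.28 for Mcm6, 1.23 for Mcm3, 1.33 for Mcm5, 1.18 for Mcm2, 0.43 for Pcna and 0.30 for Hmgb2 (edgeR adjusted p from 5.83e-05 to 0.0200). These cells could still hold mitotic UMIs that thinning removed. In their full counts the mitosis member Cenpa was higher too (0.98, edgeR adjusted p = 0.00516), while Kif23 was not called (0.04, 0.954). Over all cDC1, 51.5% of Mki67 UMIs and 59.3% of Top2a UMIs lay in the 16 and 18 cells with at least 4 UMIs of other mitotic members. Only 7.71% of Mcm6 UMIs and 9.20% of Pcna UMIs lay in such cells.

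Other genes of the cycle, from lists that share no gene with the 39, were counted in the same test. Of the S phase list, 7 of 14 tested genes were higher and 0 lower, with a median log2 difference of 0.59. They were Prim1 and Pola1 of the primase (1.77 and 1.39), Dtl (1.36), Tipin (0.94), Hells (0.94), Gmnn, which blocks a second round of origin loading (0.64), and Atad2 (0.61), with edgeR adjusted p from 5.00e-05 to 0.0397. Of the mitosis list, 3 of 9 were higher (Cks1b 0.73, Hjurp 0.75, Ckap2l 1.02). Of the regulators, E2f1 rose by 0.93 (adjusted p = 0.0237, 1 called of 8 tested Rb and E2F genes). Cyclin D1 (Ccnd1) rose by 0.45 (0.00885, 1 called of 6 tested D-type cyclins and partners). Of 3 CDK inhibitors tested, Cdkn1a rose by 0.59 (0.0164) and 2 fell. These were Cdkn1b, the CDK inhibitor p27, by 0.49 (from 195 to 143 CPM, adjusted p = 0.00127) and Cdkn2d by 0.71 (0.00485). Of the list of brakes and checkpoints, 7 genes were tested, with 0 higher and 0 lower. Mxd1, which competes with Myc for its partner Max, rose by 1.48 (2.36e-07) and its relative Mxd4 fell by 0.56 (0.00863). Ccnd2 (0.31, adjusted p = 0.66), Ccnd3 (-0.09, 0.719) and Myc (0.14, 0.837) did not pass.

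Markers of other cells moved in the same class. The summed cDC1 marker list was at 4157 to 4589 CPM in vehicle and 2915 to 3204 CPM in treated mice, with 7 of 8 genes lower. The progenitor list was at 84.7 to 96.9 against 138 to 161 CPM with only Ctsg at 0, but 1 of its 6 genes could be tested (1 higher). The cDC2 list was at 59.0 to 85.5 against 108 to 197 CPM (2 of 4 tested genes higher). The classical monocyte list was at 219 to 290 against 72.6 to 108 CPM (1 of 3 lower). Their part in the rise of the members was not tested. Median depth was 19986 UMIs per cell in vehicle and 18209 in treated mice.

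In ascites T cells no member passed the threshold, and the mitosis members differed widely between treated mice. Of 15 members tested in 4 vehicle and 4 treated mice, edgeR called 0, with 1 at an unadjusted p below 0.05, against 0.505% of 6137 genes higher, 0.391% lower and 0.896% in either direction. DESeq2 called 0 and gave no adjusted p for 10 of the 15. The median log2 difference was 0.46, with 14 of 15 positive. On simulated counts, 66% of genes changed 2-fold and 91% of those changed 4-fold were found in T cells, and 79% and 93% in cDC1. These shares cover 200 changed genes among 6137 in T cells and among 7459 in cDC1, not the members at their own counts and spread. How far they hold for the members was not tested.

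Mki67 in T cells was at 34.1, 31.3, 68.4 and 21.1 CPM in vehicle mice and at 158, 175, 48.4 and 10.0 CPM in treated mice (1.39 ± 1.01, edgeR adjusted p = 0.672). Treated mice 1 and 2 were the highest of all mice and treated mouse 4 the lowest. Cluster 8, the T cell cluster with the higher cycling share, made up 62.9, 64.5, 66.1 and 16.8% of the T cells in treated mice and 36.1, 44.9, 53.3 and 20.1% in vehicle mice, and its part in these levels was not tested. In Stmn1, treated mice 1 and 2 were again the highest, with 28.4, 28.1, 64.4 and 37.6 against 149, 124, 59.8 and 32.7 CPM (1.13, adjusted p = 0.522), and Top2a had 17.1, 34.4, 52.3 and 12.8 against 61.5, 85.2, 41.3 and 12 CPM (0.88, 0.725). Without treated mouse 4, 3 members passed, which were Stmn1 (1.46), Hmgb2 (0.89) and Top2a (1.34), named after their values were seen. The share of all genes called in that fit is not given. The replication genes were closer to 0: Mcm6 differed by 0.02 (adjusted p = 0.997), Pcna by 0.19 (0.759), Mcm5 by 0.28 (0.843) and Mcm2 by 0.46 (0.604). Cdk1, Ccnb1, Ccne1, Rrm2 and Tyms were too low to test.

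The cycling share of T cells was 4.41, 4.76, 6.82 and 4.02% in vehicle mice and 14.9, 5.77, 8.77 and 5.57% in treated mice, which overlapped (5.0 ± 1.25% against 8.75 ± 4.35%, SD, n = 4). Without treated mouse 1 the difference of 3.75 percentage points was 1.70. Without Cenpa the shares were 2.77 ± 0.387% and 4.62 ± 3.46%, with at least 4 UMIs 1.56 ± 0.566% and 2.53 ± 1.34%, and without thinning 16 ± 1.80% and 23.5 ± 8.42%. Within cluster 8 the share was 8.49 ± 1.92% and 12.1 ± 7.90%, and within cluster 1 it was 2.67 ± 2.10% and 3.32 ± 2.55%, and edgeR called 0 of 12 and 0 of 3 tested members (2 and 1 at an unadjusted p below 0.05). The background in cluster 8 was 0.436% of genes higher and 0.18% lower, and in cluster 1 it was 2.09% and 1.92%. In CD8 T cells alone (3 vehicle and 4 treated mice) edgeR called 0 of 4 tested members (2 at an unadjusted p below 0.05), against 0.111% of genes higher, 0.184% lower and 0.295% in either direction. Of the other cycle genes in T cells, Myc, which drives growth and entry into the cycle, fell by 0.89 (from 88.9 to 49.2 CPM, edgeR adjusted p = 0.0286), and no S phase or mitosis gene passed of 9 and 4 tested. Ccnd3 (-0.68, adjusted p = 0.0536), Ccnd2 (0.53, 0.242), Cdkn1a (0.38, 0.562) and Cdkn1b (-0.24, 0.672) did not pass. The direct test of the difference between cDC1 and T cells called 1 of 29 members, Mcm6, a count near the 1.69% of all genes. Its treatment effect was larger in cDC1 by 1.16 on the log2 scale (edgeR interaction, adjusted p = 0.0295). Against T cells of cluster 8 the same test called 0 of 28 members (1.5% of all genes), and against those of cluster 1 0 of 18 (1.67%).

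The treatment effect in cDC1 was also set against that in the other ascites classes by the same interaction test. It was larger in cDC1 for Mcm6 and Mcm3 against B cells (2 of 18 tested members, 5.1% of all genes), and for Mcm6 and Mcm4 against cDC2 (2 of 26, 1.75%). Against classical monocytes it was larger for Hmgb2, Mcm6, Birc5 and Ccnb2 (4 of 20, 4.52%), and against migratory dendritic cells for 6 of 22 (4.06%). Against macrophages 0 of 32 differed (13% of all genes). With cluster 3 among the macrophages the effect was larger in cDC1 for Cdc20, Cdk1, Hmgb2 and Ccnb1 (4 of 36, 8.79%), a count near the share of all genes. Against neutrophils 0 of 19 differed (0.851%), and against CD8 T cells 0 of 23 (0.619%). In classical monocytes vehicle mouse 3 was far above the others for Mki67 and Birc5, and Ccnb2 rested on 17 vehicle and 2 treated UMIs there. No member had a smaller effect in cDC1 in any of these tests.

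In ascites macrophages, with cluster 3 left out, 5 replication members and the mitosis member Cenpa were higher in treated mice. There 1 mitosis member was lower. Cluster 3 held 116, 162, 199 and 79 cells of the vehicle mice, against 92, 97, 103 and 144 in the clusters kept. Of 29 members tested in 4 vehicle and 4 treated mice, edgeR called 6 higher and 1 lower, against 14% and 16.9% of 8856 genes. The count higher was thus not far above the share of all genes called higher. The arms filled different clusters, with 608 of the treated cells in cluster 2 and 285 and 110 of the vehicle cells in clusters 10 and 14, so that cluster and treatment cannot be told apart. Median depth was 19208 UMIs in vehicle and 12002 in treated mice, and 6 of 8 macrophage markers were lower. The summed classical monocyte list was at 3461 to 6957 CPM in vehicle and 1383 to 1739 CPM in treated mice (1 of 6 genes lower, 3 higher), and the progenitor list at 214 to 361 against 29.2 to 105 CPM (1 of 1 tested lower), and their part was not tested.

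Mcm2 was at 11.2, 8.24, 5.30 and 9.55 CPM in vehicle and at 20.5, 44.6, 24.0 and 20.2 CPM in treated mice (1.69 ± 0.28, edgeR adjusted p = 0.000379). Gins2 rose by 1.73 (0.000797), Mcm4 by 1.17 (0.00124), Mcm3 by 0.90 (0.00397) and Pcna by 0.43 (0.0302), all without overlap. Treated mouse 2 was the highest for each of these, and Pcna did not pass without it (0.125) or without any 1 vehicle mouse (up to 0.0813). Without treated mouse 1, which was the lowest treated mouse for Mcm3, Mcm5, Mcm6, Mcm7, Pcna, Tyms and Uhrf1, 12 members were higher, with Mcm5, Mcm6, Mcm7, Tyms, Cdc6 and Uhrf1 added. Mki67 had 57.4, 57.1, 44.4 and 45.6 against 25.2, 99.1, 43.5 and 23.2 CPM (-0.04, adjusted p = 0.965). Ccnb2, cyclin B2, was the member called lower, at 12.8, 22.1, 14.5 and 12 against 2.35, 12, 2.72 and 2.02 CPM (-1.41, 0.0398), and the call was lost in 11 of 19 alternatives. Without treated mouse 2, Ccnb2, Cenpe, Cenpf, Tpx2, Mki67 and Birc5 were lower. For fits that leave out a mouse the share of all genes called is not given. With cluster 3 included, 4 of 37 tested members (Cenpa, Mcm2, Mcm4 and Gins2) were higher, against 10.8% of genes, a count near that share. Then 6 of the 37 were lower, Cdc20, Ccnb2, Ccnb1, Kif11, Kif20a and Hmgb2, against 11.6% of genes, also not far from that share. The median log2 difference over the tested members was 0.33 without cluster 3 and -0.56 with it, so its sign depended on that cluster.

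The cycling share of macrophages was 7.61, 6.19, 4.85 and 3.47% in vehicle mice and 6.71, 11.3, 6.12 and 6.41% in treated mice, with overlap. Without Cenpa it was 5.0 ± 1.25% against 3.16 ± 2.86%, so the sign of the difference depended on Cenpa. In macrophages with no mitotic UMI after thinning, 5 of 10 tested members outside mitosis were higher, against 14.2% of genes: Mcm2 (1.72), Mcm7 (0.96), Mcm3 (0.60), Hmgb2 (0.45) and Pcna (0.38). The full counts of these cells still held mitotic UMIs, and Cenpa was higher there (2.66, edgeR adjusted p = 5.01e-08), while Mki67 was not called (-0.03, 0.96). Of the S phase list, 10 of 15 genes were higher, with Dtl (2.82), Chaf1b of the chromatin assembly factor (1.51) and the flap endonuclease Fen1 (1.21) among them, and E2f1 rose by 1.16. Of the mitosis list, 1 of 14 was higher, a gene that also leads cluster 2. Myc fell by 2.16 and Mxd1 rose by 1.66, and Trp53, the p53 gene, rose by 0.62.

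**Figure D3:**
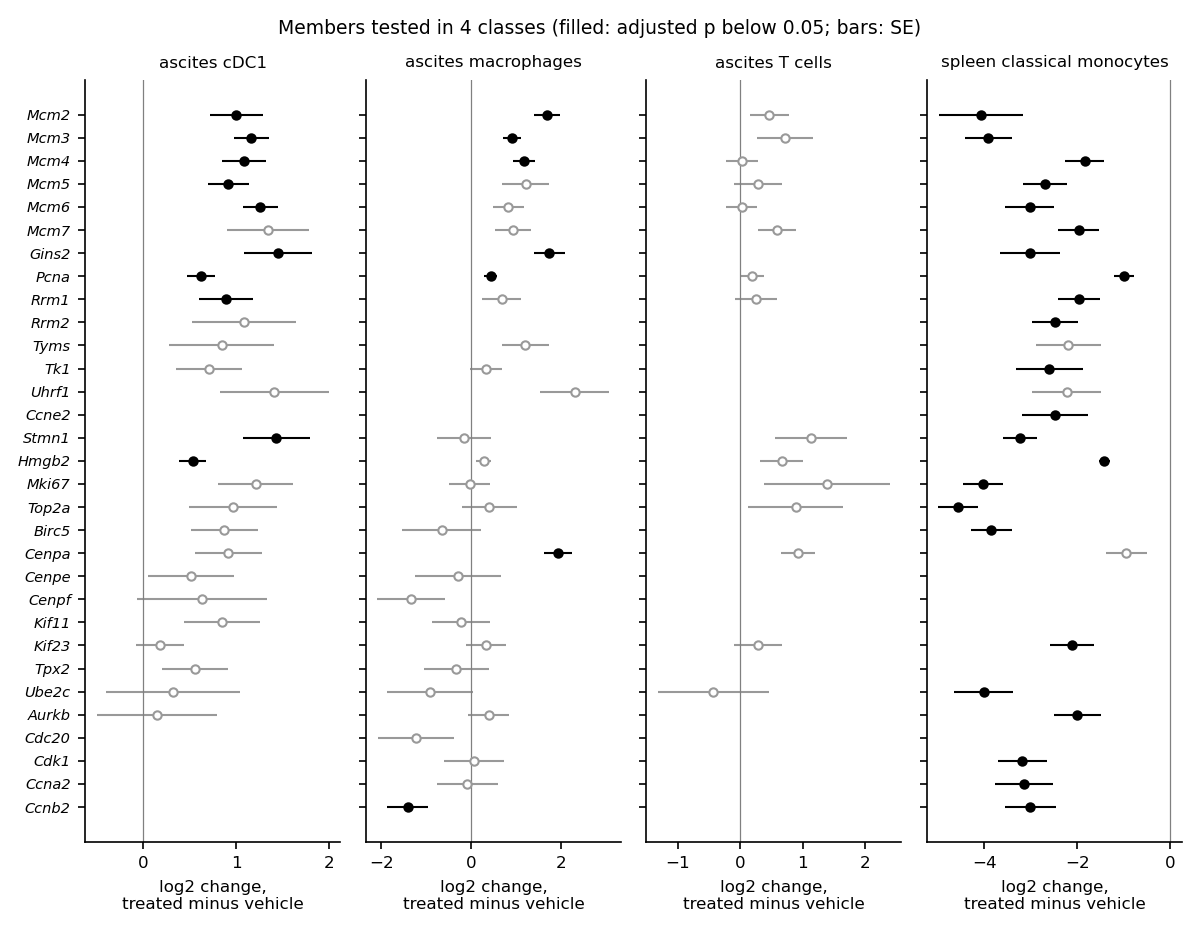
Log2 difference, treated minus vehicle, of each tested member in ascites cDC1, macrophages and T cells and in spleen classical monocytes, with bars for the SE and filled points for an edgeR adjusted p below 0.05. The cDC1 values are all above 0, those of T cells pass in no case, and 23 of 26 in spleen monocytes are called lower.

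Cenpa, the histone H3 variant that marks centromeres (chr5:30666777-30674830, plus strand), was called higher in 3 ascites classes. In macrophages it was at 32.3, 30.9, 28.0 and 14.2 CPM in vehicle and at 131, 125, 69.3 and 73.6 CPM in treated mice (1.92 ± 0.31, edgeR adjusted p = 0.002). In cDC2 it had 64.8, 54.2, 30.2 and 38.7 against 185, 181, 99.7 and 72.3 CPM (1.5 ± 0.37, adjusted p = 0.0385) and was the 1 member called of 15, against 5.2% of genes higher and 6.83% lower. In classical monocytes it had 60.7, 49.2, 39.5 and 43.8 against 111, 177, 62.5 and 61.5 CPM (1.10 ± 0.29, 0.0257), the 1 called of 3, against 4.28% higher, 4.07% lower and 8.35% in either direction. The arms did not overlap in these 3 classes. The call in macrophages held without any 1 mouse, while that in cDC2 was lost without treated mouse 1 or 2 or vehicle mouse 2 or 4 (edgeR adjusted p up to 0.0988), and that in monocytes without treated mouse 1 or 2 or vehicle mouse 2, 3 or 4 (up to 0.0869).

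Differences of 1.22 in migratory dendritic cells (adjusted p = 0.0761), 0.92 in T cells (0.162), 0.91 in cDC1 (0.125) and 0.54 in B cells (0.422) did not pass. In spleen and blood the values ran from -0.94 in spleen classical monocytes (0.205) to 0.34 in spleen B cell cluster 1 (0.583). In ascites macrophages, cDC2 and classical monocytes, most Cenpa UMIs lay in cells with fewer than 4 UMIs of other mitotic members. Cenpa was counted in 47.0% of these macrophages, 49.5% of cDC2 and 38.2% of classical monocytes. Of its UMIs, 17.3% in macrophages, 10.7% in cDC2 and 1.05% in monocytes lay in cells with at least 4 UMIs of other mitotic members, against 39.2% and 40.8% of Mki67 UMIs in macrophages and cDC2. In macrophage cluster 3 that share was 58.3% for Cenpa and 74.0% for Mki67.

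**Figure D4:**
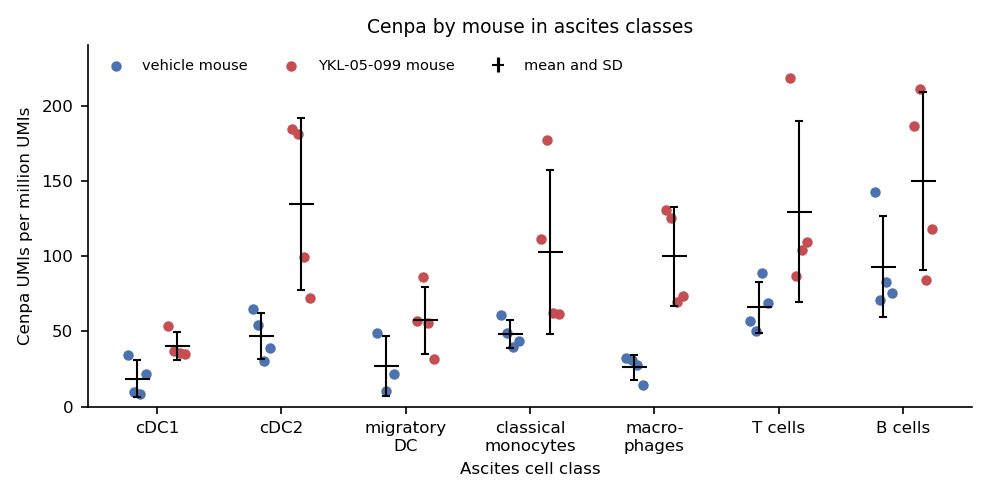
Cenpa in 7 ascites classes as CPM on a linear axis, with points for mice and bars for the mean and SD of each arm. In macrophages the treated mice (69.3 to 131 CPM) lie above the vehicle mice (14.2 to 32.3 CPM), and the arms are also apart in cDC1, cDC2 and classical monocytes.

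In classical monocytes of the spleen the members were lower in treated mice, in a comparison of only 2 mice per arm. Vehicle mice 2 and 3 and treated mice 3 and 4 had at least 20 such cells. Of 26 members tested, edgeR called 23 lower and 0 higher, against 4.16% and 5.86% of 5000 genes, and DESeq2 called 13 lower and gave no adjusted p for 5. All 39 members had a lower mean in treated mice, against 56.7% of the 13559 genes with a UMI. For 38 of the 39, all but Cenpe, both treated mice were below both vehicle mice, against 25.1% of those genes and 30.8% of genes with at least 10 UMIs. With at least 10 cells per mouse, which admits 3 mice per arm, 14 were lower, and with a stricter hashtag rule 12. The share of all genes called in those settings is not given.

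Hmgb2 was at 1836 and 1896 CPM in vehicle and at 575 and 703 CPM in treated mice (-1.42 ± 0.12, edgeR adjusted p = 5.5e-06). Top2a had 129 and 133 against 3.14 and 6.11 CPM (-4.56 ± 0.42, 1.57e-05), and Mki67 had 157 and 118 against 3.14 and 10.2 CPM (-4.02 ± 0.43, 5.28e-05). These treated values rest on 4 and 6 UMIs. Stmn1 went from 685 and 528 to 94.2 and 32.6 CPM (-3.23, 0.00181). Birc5, the survivin of the chromosomal passenger complex, fell by 3.85 (9.72e-05), Mcm3 by 3.91 (0.000276), Ube2c, which marks cyclins for destruction, by 4.01 (0.0017), Cdk1 by 3.18 (0.00177) and Mcm5 by 2.69 (0.0028). Mcm6 fell by 3.02 and Ccnb2 by 3.01 (both 0.00296). Tyms, Uhrf1 and Cenpa did not pass.

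The cycling share was 18.2 and 19.7% in the vehicle mice (22 and 61 cells) and 0 and 4.35% in the treated mice (31 and 46 cells). The mice with fewer cells had 20% of 15 cells (vehicle mouse 1) and 12.5% of 16 cells (treated mouse 2). Of the S phase list 12 of 16 genes were lower, and of the mitosis list 6 of 9. Cdk4 fell by 1.39, while Ccnd1 rose by 2.42 and the antiproliferative genes Btg1 and Btg2 rose by 0.65 and 0.83.

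Genes of early myeloid precursors moved with the members in this class. The progenitor list summed to 1797 to 2248 CPM in the vehicle mice and 91.1 to 91.7 CPM in the treated mice, with 4 of 5 tested genes lower. Of the granule proteases, Prtn3 went from 1241 and 959 to 47.1 and 42.8 CPM, Ctsg from 476 and 285 to 0 and 10.2 CPM and Elane from 214 and 286 to 3.14 and 0 CPM, and the peroxidase Mpo went from 255 and 231 to 0 and 4.08 CPM. The progenitor gene Kit differed by 1.01 the other way and did not pass (edgeR adjusted p = 0.144). The classical monocyte list summed to 4648 to 8189 CPM in the vehicle and 2826 to 4079 CPM in the treated mice. Of its 6 genes only Ccr2 passed (-0.94, 0.00753), with Chil3 at -1.15, F13a1 at -0.90, Vcan at -1.43, Fn1 at -0.66 and Ly6c2 at -0.04. The part of such cells in the fall of the members was not tested.

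**Figure D5:**
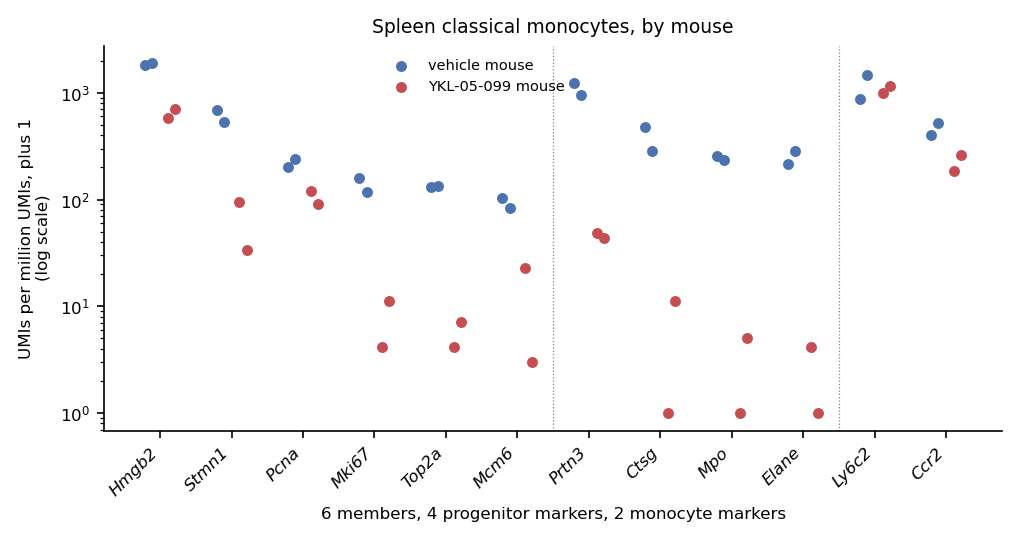
Spleen classical monocytes of 2 vehicle and 2 treated mice, as CPM plus 1 on a log axis, with 1 point per mouse. The 6 members (Hmgb2, Stmn1, Pcna, Mki67, Top2a, Mcm6) and the 4 progenitor markers (Prtn3, Ctsg, Mpo, Elane) lie lower in the treated mice. Of the 2 monocyte markers drawn, Ccr2 lies lower too and Ly6c2 overlaps between the arms.

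In the remaining classes few members moved. Uhrf1 fell in ascites migratory dendritic cells, from 22.7, 23.8 and 27.8 CPM in 3 vehicle mice to 9.74, 12.1, 6.8 and 6.29 CPM in treated mice (-1.46, edgeR adjusted p = 0.0275), the 1 of 4 tested, against 5.08% of genes lower. It did not pass without any 1 of the 3 vehicle mice (up to 0.173). Stmn1 rose in CD8 T cells of the spleen, from 21.8, 8.97 and 11.5 to 59.2, 22.8 and 28.8 CPM (1.19, 0.0382), the 1 of 11 tested, against 0.565% of genes higher. It did not pass without treated mouse 2 or vehicle mouse 2 or 3 (up to 0.411). In 12 classes, ascites T cells among them, edgeR called 0 of the members tested. They had 15 member results at an unadjusted p below 0.05, and DESeq2 called 0 but gave no adjusted p for 54 of the 93. Beside these zeros, the share of genes called higher and lower was 3.73% and 5% in ascites B cells (8.73% in either direction, 10 members tested), 2.01% and 0.288% in ascites neutrophils (2.3% in either direction), 0.212% and 0.106% in CD4 T cells of the spleen (19 tested) and 1.26% and 1.61% in its B cells (5 tested). It was 2.04% and 1.48% in B cell cluster 1, 0.284% and 0.533% in B cell cluster 7 and 0.458% and 1.4% in T cell cluster 10 of the spleen. In blood, 1.01% of genes were called in either direction in B cells (10 tested), 0.0508% in CD8 T cells (6 tested), 0.483% in NK cells (3 tested) and 0.536% in non-classical monocytes (2 tested, 0.268% higher and 0.268% lower).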

How the data were processed

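The authors deposited UMI counts per gene and hashtag for each barcode, made with Cell Ranger 6.1.1 on mm10 per the submitters' processing notes, from 10x 3' v3.1 libraries per the labels. The submitters' hashtag notes give mouse, arm and tissue, and the series design names YKL-05-099 and vehicle. The counts are unnormalized, so their precision follows the depth given above.

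Kept were barcodes (11112 and 11513) with 200 or more genes, 500 or more UMIs and no more than 10% of UMIs from mitochondrial genes; a cell went to its top hashtag where that held at least 80% of at least 20 hashtag UMIs. Scrublet called 0 doublets, so it did not work here. In ascites 2354 cells were assigned by this rule alone and 4065 also by HTODemux, a second rule, with medians of 12184 and 6160 UMIs. Their cycling shares were 6.65% and 6.34%. In spleen and blood the cells were 1615 and 5126. The part of doublets in the classes was not tested. Clusters (scanpy 1.11.5, leidenalg 0.10.2, resolution 1, 20 neighbours, 30 components) used 2000 variable genes less those of the cell cycle. Counts were summed per mouse and class (at least 20 cells, 2 mice per arm) and tested with edgeR 4.0.16 (TMM, filterByExpr, robust quasi-likelihood) in R 4.3.3. The script was tested on simulated data with 200 changed genes. GENCODE gene positions and RefSeq promoters are on GRCm38.

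Members, lists and tests were chosen with earlier results of these data known. Named are, in cDC1 and ascites T cells, all members called and 12 fixed ones; elsewhere up to 10 called by p; of other lists, up to 12 called and 7 fixed regulators. Genes shown beyond this rule were chosen after their values were seen. Equal mouse numbers in the arms are different animals, so the mice were not paired. Correlations of deviations ran from -0.09 to 0.26 for equal numbers and from -0.19 to 0.12 for unequal ones. Per class, 1 to 5 of 8 samples were closest to their own number, so the correlations do not settle whether equal numbers share anything. Alternatives were HTODemux of Seurat 5.3.0, a strict hashtag rule (90% of 50 UMIs), 5% mitochondrial UMIs, leaving out the top 5% of Scrublet scores, a marker gate, 10 or 50 cells, DESeq2 1.42.0, no low-count filter, a replicate block, other thinning and UMI thresholds, and leaving out each mouse. Added after seeing the data were cells without mitotic UMIs after thinning, the addition of macrophage cluster 3 and shares without Cenpa. P-values measure the spread between these mice.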

Additional observations from a re-analysis of the deposited data

Results flagged for a closer look

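Of 80 groups of 4 mice checked for a distant sample, 6 had one, against about 1 in 20 by chance. Treated mouse 2 stood apart in ascites macrophages, with a cycling share of 11.3%, Ccnb2 at 12 CPM and Mcm2 at 44.6 CPM, and in migratory dendritic cells with a cycling share of 9.23%. Vehicle mouse 3 had 556 CPM of summed mitotic members in classical monocytes, and vehicle mouse 1 had 457 CPM in neutrophils. Ccnb2 in macrophages was not called when any mouse but treated mouse 2 was left out, and the count of members called lower was 6 without treated mouse 2.

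The treatment effect differed between cDC1 and another ascites class for 15 member results, by an edgeR interaction term and with macrophage cluster 3 left out. Against T cell clusters 8 and 1, 0 of 28 and 0 of 18 members differed. The effect in cDC1 was larger by 1.16 on the log2 scale than in T cells for Mcm6 (1 of 29, near the 1.69% of all genes). It was larger than in B cells by 1.68 for Mcm6 and 1.21 for Mcm3, and than in cDC2 by 1.22 for Mcm6 and 1.20 for Mcm4. Against classical monocytes it was larger by 2.11 for Mcm6, 1.09 for Hmgb2, 2.93 for Birc5 and 3.92 for Ccnb2. Against migratory dendritic cells it was larger by 2.87 for Mki67, 2.91 for Uhrf1, 2.84 for Birc5, 1.85 for Rrm1, 0.68 for Hmgb2 and 4.59 for Cdk1. The values for Ccnb2 and Cdk1 rest on few counts, with 2 treated UMIs of Ccnb2 in the monocytes and 1 of Cdk1 in the migratory dendritic cells.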

How the results depend on the processing

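The counts for the alternatives below stand without the share of all genes called in the same setting, so they have no background beside them. Such shares were given above only with cluster 3 and for cells without mitotic UMIs after thinning. In ascites cDC1, 18 members were higher with no low-count filter, 7 to 15 when each mouse was left out, and 0 were lower in any alternative. Mcm3, Mcm5, Mcm6 and Pcna kept their call in 20 of 20 alternatives and Gins2 in the 18 that gave it a value, while Rrm1 lost it in 10 of 20, Stmn1 in 8, Hmgb2 and Mcm2 in 5 each and Mcm4 in 1. In T cells 2 were higher with no filter (Cenpa and Hmgb2) and 0 to 3 without single mice. In macrophages 2 were higher with HTODemux, 11 with no filter and 5 to 12 without single mice. The count lower there was 0 with HTODemux, at most 5% mitochondrial UMIs, the strict hashtag rule, the top Scrublet scores left out or only cells without mitotic UMIs, 2 with no filter, 6 with cluster 3 and 0 to 6 without single mice. In spleen monocytes 13 were lower with DESeq2, 14 with at least 10 cells, 12 with the strict hashtag rule and 16 to 30 without single mice, where an arm of 1 mouse is assumed to vary like the other arm, so these counts say little about stability. In the other classes together 3 were higher and 1 lower. The count higher was 1 with at least 50 cells or with cells without mitotic UMIs and 8 with no filter. The count lower was 0 with DESeq2, HTODemux, at least 10 or 50 cells, cells without mitotic UMIs, the strict rule or the top Scrublet scores left out, and 11 with no filter. With the replicate block, which pairs no real animals, 16 members were higher in cDC1, 1 in T cells (Cenpa), 10 in macrophages and 6 in the other classes, and 3 were lower in macrophages and 2 in the other classes. No paired analysis was possible for spleen monocytes because the arms share only 1 number there.

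The difference in cycling share of cDC1 (4.89 percentage points) was 7.45 with HTODemux, 9.66 with at least 1 UMI, 13.5 without thinning, 7.80 at 4000 UMIs, 2.87 with at least 4 UMIs and 3.71 to 5.57 without single mice. In T cells (3.75) it was 9.31 with at least 1 UMI, 0.977 with at least 4 UMIs and 1.70 to 4.81 without single mice. In macrophages (2.09) it was 14.9 with at least 1 UMI, 16.4 without thinning, 9.52 at 4000 UMIs and 0.884 to 2.79 without single mice. It reversed to -1.59 with at least 4 UMIs, -1.84 without Cenpa, -0.703 at 1000 UMIs and -1.13 with cluster 3. For 44 single gene results, 529 alternative values stayed on the same side of the threshold, 108 lost the call and none changed sign. The causes were not tested. Few cells per mouse and few UMIs limit what could be tested, since 10 to 24 of the 39 members could not be tested in cDC1, macrophages and T cells.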
